A study of Danio rerio with 8 samples.

Results

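The genes described here are 9 genes of retinoic acid metabolism and signalling, measured in cells sorted from embryonal rhabdomyosarcoma of zebrafish, a tumour that resembles skeletal muscle in development. They are the 9 of 8793 named genes on the array whose symbols are cyp26a1, cyp26c1, dhrs3a, stra6, crabp2a, crabp2b, raraa, rarab and rarga, read by 10 of 15502 probe sets. The set was chosen from results of these same arrays, and which comparison led to the choice is not stated. It was taken to be that of GFP-only cells with cells that show mCherry alone, in which cyp26a1 and dhrs3a were called higher in GFP-only cells. That difference (GFP-only minus mCherry-only) is therefore described below without a test, and tests are given for the other comparisons.

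Retinoic acid is made from vitamin A in steps. Stra6 takes retinol into cells, retinol dehydrogenases and the retinaldehyde dehydrogenase Aldh1a2 oxidise it to retinoic acid, and Dhrs3 reduces retinaldehyde back to retinol. Crabp proteins carry retinoic acid in the cell, Rar receptors paired with Rxr receptors bind it and switch genes, and Cyp26 enzymes hydroxylate it for removal. In vertebrate embryos cyp26a1 and dhrs3 are among the genes that retinoic acid itself induces, and retinoic acid is known to promote differentiation of muscle precursors.

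The tumours arose in CG1-strain fish, outcrossed 4 times, that had been injected as embryos with the activated transgene rag2-kRAS12D, driven by the promoter of the lymphoid gene rag2. The fish carried the reporters myf5-GFP, which marks early myogenic cells, and mylz2-mCherry, which marks differentiated fast muscle. Tumour cells were grown in syngeneic recipients without reporters, so host cells carry neither reporter transgene. Whether host cells were nonetheless sorted into a coloured population was not tested. Each of 2 tumours was sorted in repeated rounds into cells with GFP only, with both colours (double-positive), with mCherry only and with neither (double-negative), which gives 8 arrays and 2 per population. The age of the fish is not given in the labels.

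The deposited signals are on a log scale whose base the sources do not state. They are treated as log2 here, and under a natural logarithm every difference would stand for a larger ratio. Array medians lay between 4.54 and 4.71 and lower quartiles between 3.38 and 3.75. Precision is limited by the number of arrays. Signal over background was not analysed here, so no fold changes are given, and a value under its array's lower quartile is called dim. In tumour 2 the arrays of mCherry-only and of double-negative cells were unlike the rest. Set against the arrays of the GFP-positive populations, their ranks correlated at 0.648 and 0.653 on average, and those of the other 6 arrays at 0.805 to 0.849. Transcripts of mylpfa, the gene formerly named mylz2, were at 7.4 and 6.23 in GFP-only, 10.71 and 10.87 in double-positive, 10.80 and 9.21 in mCherry-only and 4.58 and 4.73 in double-negative cells. Transcripts of myf5 were at 5.47 and 5.21 in GFP-only, 3.81 and 6.02 in double-positive, 3.28 and 4.34 in mCherry-only and 3.96 and 4.07 in double-negative cells, so in tumour 1 the double-positive array did not lie above the double-negative array as the GFP sort would place it. Where values come in pairs, tumour 1 is given first.

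The retinoic acid hydroxylase gene cyp26a1 was at its highest in GFP-only cells. Its signal there was 7.43 in tumour 1 and 7.34 in tumour 2, against 1.75 and 1.76 in mCherry-only cells. Double-positive cells had 2.91 and 4.6, and double-negative cells 4.83 and 2.55. Both GFP-only arrays lay above all 6 other arrays, and the mCherry-only arrays lay below all others. By mean the order was GFP-only (7.38 ± 0.06, SD, n = 2 tumours), double-positive (3.76 ± 1.2), double-negative (3.69 ± 1.61) and mCherry-only (1.76 ± 0.01). The double-positive and double-negative arrays overlapped, and their order was opposite in the 2 tumours. Both mCherry-only arrays, the double-positive array of tumour 1 and the double-negative array of tumour 2 were dim.

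The retinaldehyde reductase gene dhrs3a had the same highest population. It was at 5.36 and 5.66 in GFP-only cells of tumours 1 and 2. It was at 0.36 and 2.09 in double-positive, 1.26 and 0.59 in mCherry-only and 3.26 and 0.72 in double-negative cells. All 6 arrays outside the GFP-only population were dim, and both GFP-only arrays lay above them. The means were 5.51 ± 0.21 (SD, n = 2) in GFP-only, 1.99 ± 1.80 in double-negative, 1.23 ± 1.22 in double-positive and, lowest, 0.92 ± 0.47 in mCherry-only cells. The last 3 overlapped from neighbour to neighbour, and nothing is read from the order among dim values.

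**Figure D1:**
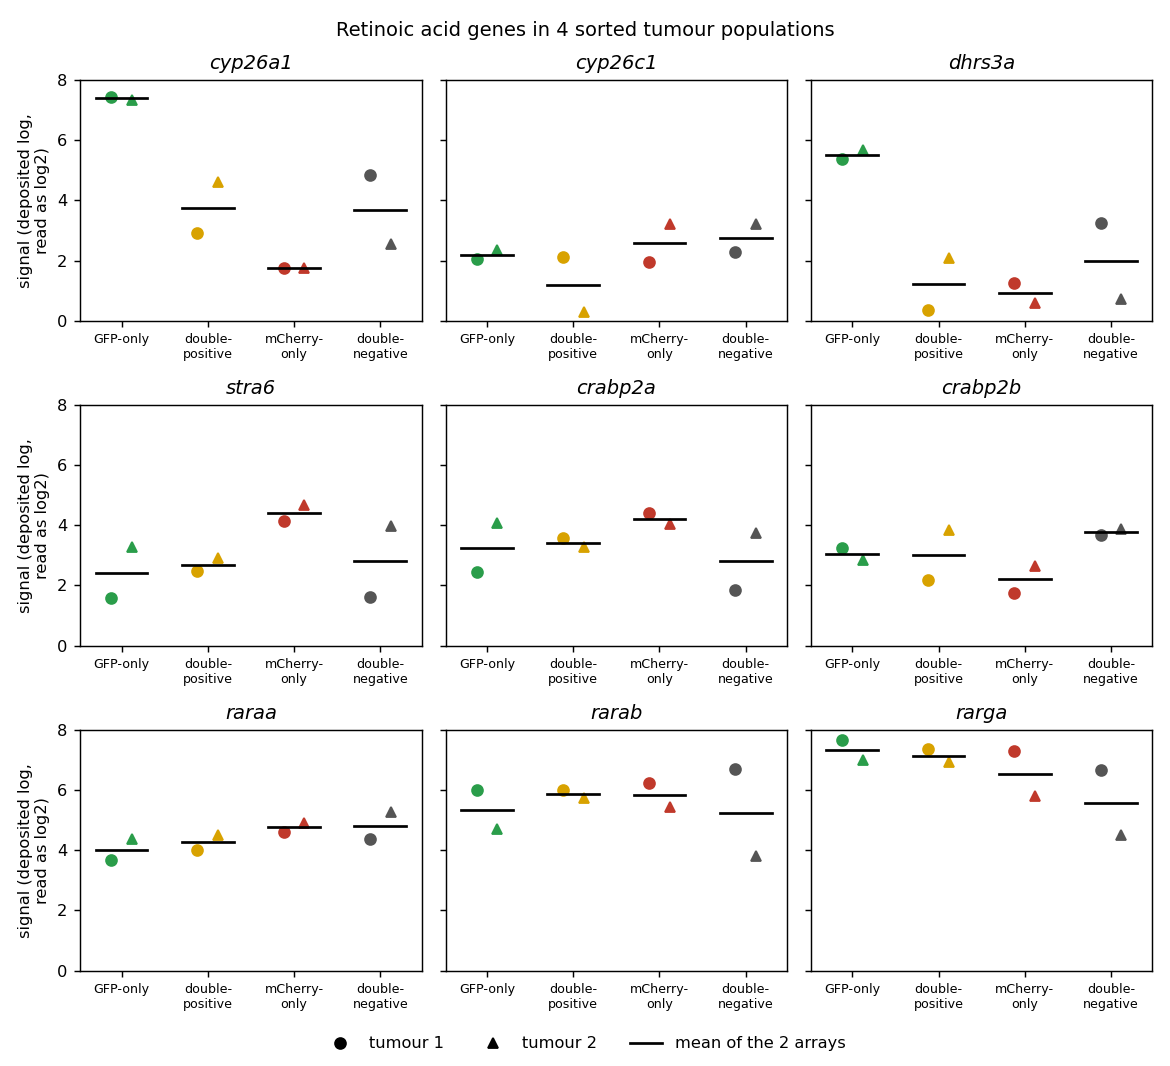
Signal of the 9 retinoic acid genes (vertical axes, log2) in the 4 sorted populations (horizontal axes), with a circle for tumour 1, a triangle for tumour 2 and a bar for their mean. The GFP-only arrays of cyp26a1 (7.43 and 7.34) and dhrs3a (5.36 and 5.66) lie above all other arrays of the same gene, which holds for none of the other 7 genes.

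The difference between GFP-only and mCherry-only cells was 5.63 ± 0.81 (limma standard error, SE) for cyp26a1, with 5.68 in tumour 1 and 5.58 in tumour 2. For dhrs3a it was 4.58 ± 0.86, with 4.1 and 5.07. In this comparison 0.858% of all probe sets were called at an adjusted p under 0.05 by limma, 3 higher in GFP-only cells and 130 lower. Of the 9 genes 2 were among the 3, which was taken to be the reason for their choice. The arrays of the 2 populations did not overlap for 5 of 9 genes, against 43.4% of all probe sets, so that count says nothing particular about these genes. The median difference over the 9 genes was -0.38, against -0.08 over all probe sets.

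GFP-only cells were compared with double-negative cells, which show neither colour. Of the comparisons that follow, all but that of double-positive with double-negative cells share arrays with the difference taken to have chosen the genes. If another comparison led to the choice, that one too may share arrays with it. None of the tests is independent of the choice, since all share 1 estimate of the spread from the 8 arrays. The interaction of the reporters is orthogonal as a contrast to GFP-only minus mCherry-only, but need not be to another comparison that led to the choice. The GFP-only minus double-negative difference was 3.70 ± 0.81 (SE) for cyp26a1 (2.60 in tumour 1, 4.79 in tumour 2) and 3.52 ± 0.86 for dhrs3a (2.10 and 4.94). Both were positive in 2 of 2 tumours, and neither passed the test. The adjusted p was 0.129 for cyp26a1 and 0.220 for dhrs3a (limma, Benjamini-Hochberg over all probe sets; 0.0867 and 0.143 with the tumour as a block). The size of both differences depended on which double-negative array was kept. Without that of tumour 1 they were 4.84 and 4.79. Double-negative cells were then represented only by the tumour 2 array, which was unlike the rest. Leaving out the tumour 2 array instead gave 2.555 for cyp26a1 and 2.25 for dhrs3a. In all 0 of 9 genes were called, 2 at an unadjusted p under 0.05, against 0.516% of all probe sets, of which 0 were higher in GFP-only cells (761 probe sets of either direction at an unadjusted p under 0.05). The populations did not overlap for 4 of 9 genes, against a background of 29.3%.

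Against double-positive cells, which share the GFP reporter, the GFP-only difference was 3.63 ± 0.81 (SE) for cyp26a1 (4.52 in tumour 1, 2.74 in tumour 2) and 4.28 ± 0.86 for dhrs3a (5.0 and 3.57). Both were positive in 2 of 2 tumours, with limma adjusted p-values of 0.557 and 0.408 (0.286 and 0.192 with the tumour as a block). With only the arrays compared dhrs3a was called (limma adjusted p = 0.0327, with 0.0327 to 1 over all alternatives). Leaving out the 2 unlike arrays of tumour 2 gave the same fit for this comparison. The populations that lost an array then had 1 each and added nothing to the estimate of the spread. It is therefore not a second check. In all 0 of 9 genes were called by limma, 2 at an unadjusted p under 0.05, against 0.00645% of all probe sets, which is 1 probe set (326 at an unadjusted p under 0.05). These 2, cyp26a1 and dhrs3a, were also the members whose populations did not overlap, against a background of 25%.

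Double-positive and mCherry-only cells differ by the GFP reporter within mCherry-positive cells. The cyp26a1 signal differed by 2.00 ± 0.81 (SE; 1.16 in tumour 1, 2.84 in tumour 2; limma adjusted p = 0.606). For dhrs3a, dim on all 4 arrays, the difference was 0.30 ± 0.86 (-0.90 and 1.5; adjusted p = 0.966; 95% confidence interval from -1.62 to 2.22). Of the 9 genes 0 were called by limma, 1 at an unadjusted p under 0.05, against 0.329% of all probe sets (1192 at an unadjusted p under 0.05). The populations did not overlap for 4 of 9 genes, against 38.9% of all probe sets.

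The comparison of double-positive with double-negative cells shares no array with the one from which the genes were taken to be chosen. Here cyp26a1 differed by 0.06 ± 0.81 (SE; limma adjusted p = 0.999; 95% confidence interval from -1.73 to 1.86), with -1.92 in tumour 1 and 2.05 in tumour 2. For dhrs3a the difference was -0.76 ± 0.86 (-2.90 and 1.37; adjusted p = 0.999; interval from -2.69 to 1.16). For cyp26a1 the 2 tumours thus went opposite ways, and for dhrs3a all 4 arrays were dim. Of the 9 genes 0 were called by limma and 0 had an unadjusted p under 0.05, against 0.542% called over all probe sets (821 at an unadjusted p under 0.05). The populations did not overlap for 2 of 9 genes, against 26.7%.

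Between mCherry-only and double-negative cells cyp26a1 differed by -1.94 ± 0.81 (SE; -3.08 in tumour 1, -0.79 in tumour 2; limma adjusted p = 0.755) and dhrs3a by -1.06 ± 0.86 (-2.00 and -0.13; adjusted p = 0.999). Of the 9 genes 0 were called by limma, 2 at an unadjusted p under 0.05, against 0.277% of all probe sets (957 at an unadjusted p under 0.05). The populations did not overlap for 4 of 9 genes, against 29.8%.

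Whether the GFP-associated difference depends on mCherry was asked with the interaction of the reporters, the GFP-only minus double-negative difference less the double-positive minus mCherry-only difference. For dhrs3a it was 3.22 ± 1.22 (SE), with 3.0 in tumour 1 and 3.44 in tumour 2 (unadjusted p = 0.0247, adjusted p = 1.00 by limma). For cyp26a1 it was 1.70 ± 1.14 (1.44 and 1.95; adjusted p = 1.00). Of the 9 genes 0 were called by limma, 1 at an unadjusted p under 0.05, against 0% of all probe sets (356 at an unadjusted p under 0.05). A gene high in GFP-only cells alone gives a positive value here by construction, and dhrs3a was dim on every array outside that population. The dependence of either gene on mCherry was not shown by this test.

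**Figure D2:**
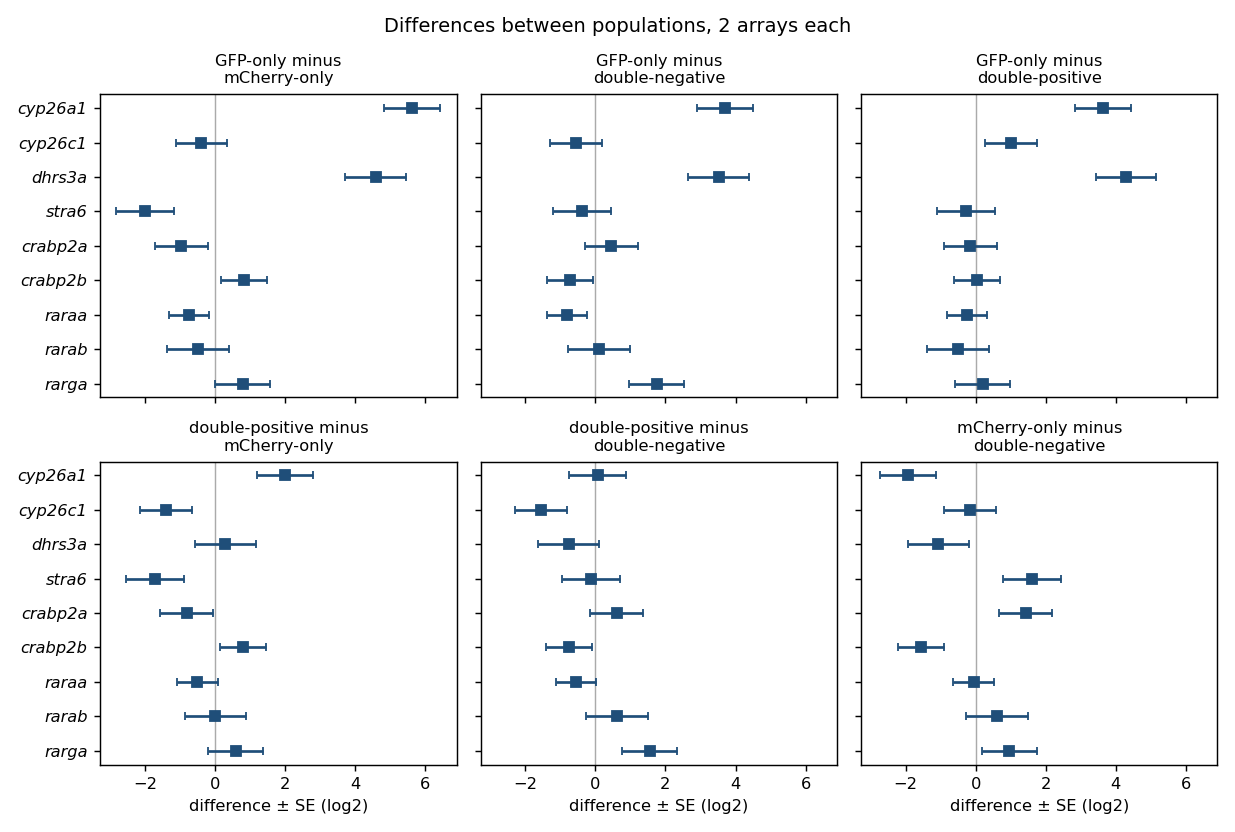
Differences between each pair of populations (horizontal axes, log2, square ± limma SE, n = 2 arrays per population) for the 9 genes (vertical axes). In the 3 panels with GFP-only cells cyp26a1 (5.63, 3.70 and 3.63) and dhrs3a (4.58, 3.52 and 4.28) lie to the right of the other genes, while between double-positive and double-negative cells they lie at 0.06 and -0.76.

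Over the 8 arrays cyp26a1 and dhrs3a had a Pearson correlation of 0.96, the highest of the 36 pairs among the 9 genes. The arrays come from 2 tumours and 4 populations, so this is a description. The correlation rests in part on the GFP-only and mCherry-only arrays, from which the genes were taken to be chosen. Most of the dhrs3a values behind it were dim, and the order of the 2 tumours within a population was the same for both genes in double-positive and double-negative cells and opposite in GFP-only and mCherry-only cells. Among 1527 named genes whose SD over the arrays was at least 1, the 5 most like cyp26a1 were bmp3 (r = 0.96), dhrs3a (0.96), ybey (0.95), gart (0.95) and ppat (0.94). The first codes for a ligand of the bone morphogenetic protein family, ybey for a ribonuclease of ribosomal RNA processing known from bacteria, and gart and ppat for enzymes of purine synthesis. Signal of bmp3 was 6.05 and 6.03 in GFP-only, 3.51 and 3.93 in double-positive, 2.31 and 1.81 in mCherry-only and 5.24 and 2.35 in double-negative cells.

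**Figure D3:**
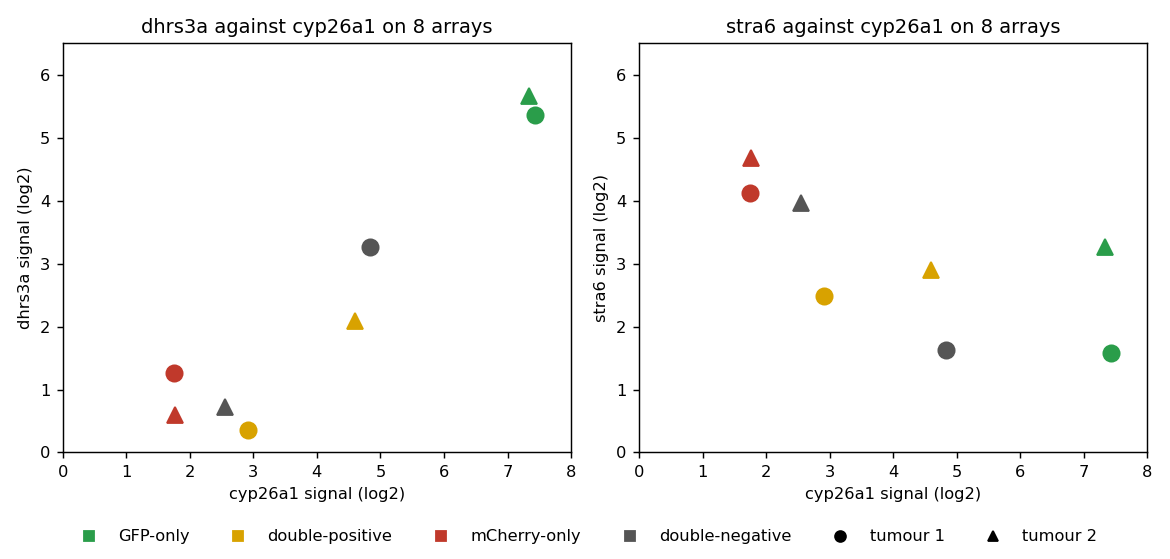
Signal of dhrs3a (left) and stra6 (right) against that of cyp26a1 on the 8 arrays (both axes log2), coloured by population, with circles for tumour 1 and triangles for tumour 2. The dhrs3a points rise with cyp26a1 (r = 0.96), and the stra6 points tend to lie lower where cyp26a1 is high (r = -0.67).

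The other member of the hydroxylase family, cyp26c1, was dim on all 8 arrays. Its signal was 2.05 and 2.35 in GFP-only, 2.11 and 0.28 in double-positive, 1.94 and 3.23 in mCherry-only and 2.29 and 3.21 in double-negative cells. The GFP-only arrays lay within the range of the mCherry-only arrays. The largest difference, -1.56 ± 0.74 (SE) between double-positive and double-negative cells (limma adjusted p = 0.994), came from tumour 2 (-2.93, against -0.18 in tumour 1).

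The retinol receptor gene stra6 had its highest signal in mCherry-only cells, at 4.13 in tumour 1 and 4.68 in tumour 2. It was at 1.58 and 3.26 in GFP-only, 2.48 and 2.90 in double-positive and 1.63 and 3.97 in double-negative cells. Both mCherry-only arrays lay above the other 6, which overlapped among populations and of which 5 were dim. The difference of GFP-only from mCherry-only cells was -1.98 ± 0.83 (SE; -2.55 and -1.42), given without a test. In the other comparisons double-positive less mCherry-only cells had -1.72 ± 0.83 (limma adjusted p = 0.689) and mCherry-only less double-negative cells 1.60 ± 0.83 (adjusted p = 0.901), neither past the test.

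The carriers of retinoic acid, crabp2a and crabp2b, were ordered differently. Signal of crabp2a was 2.44 and 4.07 in GFP-only, 3.56 and 3.26 in double-positive, 4.39 and 4.05 in mCherry-only and 1.84 and 3.75 in double-negative cells. That of crabp2b was 3.23 and 2.85 in GFP-only, 2.17 and 3.84 in double-positive, 1.76 and 2.65 in mCherry-only and 3.67 and 3.86 in double-negative cells. In crabp2a the GFP-only arrays spanned those of the double-positive cells, and in crabp2b the mCherry-only arrays lay below both GFP-only and both double-negative arrays. The difference of mCherry-only from double-negative cells was 1.42 ± 0.76 (SE; limma adjusted p = 0.920) for crabp2a and -1.56 ± 0.66 (unadjusted p = 0.0396, adjusted p = 0.763) for crabp2b, the same way in 2 of 2 tumours for each. At least 4 of the 8 arrays were dim for either gene.

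None of the arrays was dim for the retinoic acid receptor genes. Signal of raraa was 3.66 and 4.37 in GFP-only, 4.01 and 4.5 in double-positive, 4.6 and 4.91 in mCherry-only and 4.36 and 5.27 in double-negative cells. Its whole range over the 8 arrays was 1.61, and the GFP-only arrays lay below both mCherry-only arrays with a difference of -0.74 ± 0.58 (SE). Signal of rarab was 5.98 and 4.71 in GFP-only, 5.98 and 5.72 in double-positive, 6.23 and 5.44 in mCherry-only and 6.69 and 3.79 in double-negative cells. No pair of neighbouring populations was separated, and the double-negative arrays of tumours 1 and 2 were the highest and the lowest of all.

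The gamma receptor gene rarga was at 7.66 and 7.0 in GFP-only, 7.35 and 6.91 in double-positive, 7.29 and 5.78 in mCherry-only and 6.65 and 4.51 in double-negative cells. Both double-negative arrays lay below both GFP-only arrays. The difference of GFP-only from double-negative cells was 1.75 ± 0.79 (SE; 1.01 in tumour 1, 2.49 in tumour 2; unadjusted p = 0.0504, adjusted p = 1.00 by limma). The other probe set of the gene gave 0.82 ± 0.60 in that comparison, and its highest mean was in mCherry-only cells (6.36 ± 0.08, SD), not in GFP-only cells (6.08 ± 0.53). The 2 probe sets also differed in sign between GFP-only and mCherry-only cells (0.80 and -0.27). Over the 4 receptor probe sets the lowest limma adjusted p of any tested comparison was 0.863 in the fit without a block. With the tumour as a block the rarga difference of 1.75 had an SE of 0.55 and a limma adjusted p of 0.370. Over the 8 arrays raraa and the first rarga probe set ran opposite ways (r = -0.88, a description). In every population raraa was higher and rarga lower in tumour 2 than in tumour 1, so r does not describe the populations alone.

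The rest of the pathway, genes that respond to retinoic acid and genes of Fgf signalling were read from lists written with earlier results of these arrays known. Of 80 measured genes outside the 9, 39 were response genes and 17 Fgf signalling genes, and the rest were other retinoid pathway genes. Among all 80, limma called 1 between GFP-only and mCherry-only cells (15 at an unadjusted p under 0.05). Over all 15502 probe sets 0.858% were called there and 1744 had an unadjusted p under 0.05. In each of the 6 other comparisons 0 of the 80 were called (1 to 6 at an unadjusted p under 0.05). Over all probe sets 0 to 0.542% were called in those, with 326 to 1192 at an unadjusted p under 0.05. The 1 gene was rbp2a, which codes for a cellular retinol-binding protein. Its signal was 6.76 and 8.58 in mCherry-only cells, against 2.32 and 3.46 in GFP-only, 3.90 and 3.94 in double-positive and 3.93 and 3.70 in double-negative cells. The mCherry-only arrays lay above all others, with a GFP-only difference of -4.78 ± 0.69 (SE). The difference of double-positive from mCherry-only cells was -3.75 ± 0.69 (limma adjusted p = 0.0567), and it passed in 5 of 14 alternatives. Among these were the tumour as a block (limma adjusted p = 0.0208), quantile normalization (0.0490) and leaving out the dimmest 30% of probe sets (0.0453). The rest were the fits without either double-negative array, which are 1 and the same fit for this comparison. The 5 and the 14 therefore hold repeats. The difference of mCherry-only from double-negative cells was 3.86 ± 0.69 (limma adjusted p = 0.0656). It passed in 1 of 14 alternatives, with the tumour as a block (adjusted p = 0.0197).

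Of 36 listed genes for retinoid uptake, storage and synthesis 14 were measured, with a median difference of -0.22 between GFP-only and mCherry-only cells and -0.13 between GFP-only and double-negative cells, against -0.08 and 0.02 over all probe sets. The synthesis gene aldh1a2 was at 3.38 and 3.72 in GFP-only, 3.03 and 4.08 in double-positive, 3.79 and 3.78 in mCherry-only and 2.53 and 3.38 in double-negative cells. Its double-positive array of tumour 1 and both double-negative arrays were dim, and the other values lay close to the lower quartiles, so a level signal is not read from them. The retinol dehydrogenase gene rdh10b differed by 1.32 ± 0.63 (SE) between GFP-only and mCherry-only cells. The lipoprotein and carotenoid receptor gene scarb1 was at 6.32 and 6.54 in mCherry-only cells and between 4.43 and 5.31 on the other 6 arrays, and stra6l, a stra6-like gene, differed by -1.67 ± 0.69 between GFP-only and mCherry-only cells. These 4 genes were picked after their values were seen. The largest double-positive minus double-negative difference of the list, -2.01 in rlbp1a, a retinaldehyde-binding protein gene of the retina, came from 1 array at 0.36.

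Only 2 of 5 listed genes of breakdown and binding were measured. The hydroxylase gene cyp26b1, also named after its values were seen, lay between 5.34 and 6.63 on all arrays, and GFP-only differed from mCherry-only cells by 0.01 ± 0.63 (SE). Its 3 other probe sets gave 0.96, 1.25 and -1.41 for that difference. The third carrier gene, crabp1a, was at 1.38 and 2.62 in GFP-only and 1.23 and 3.26 in double-negative cells, against 3.83 and 4.15 in mCherry-only and 3.54 and 4.36 in double-positive cells. Both mCherry-positive populations lay above both others, and the double-positive minus double-negative difference was 1.70 ± 0.75 (unadjusted p = 0.0471, limma adjusted p = 0.926). All GFP-only and double-negative arrays and the double-positive array of tumour 1 were dim for crabp1a. Median differences of the list were -0.99 between GFP-only and mCherry-only and 0.74 between double-positive and double-negative cells, against -0.08 and 0.04 over all probe sets.

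Of 16 listed partner receptors and coregulators 8 were measured. Their median differences were -0.28 between GFP-only and mCherry-only and 0.20 between double-positive and double-negative cells, against -0.08 and 0.04 over all probe sets. The retinoid X receptor gene rxrga was at 6.90 and 8.82 in mCherry-only cells and between 4.74 and 5.91 on the other arrays. Its mCherry-only minus double-negative difference was 2.42 ± 0.70 (SE; limma adjusted p = 0.378). The corepressor gene ncor1 differed by 1.44 ± 0.91 between double-positive and double-negative cells (adjusted p = 0.999), with its lowest value, 2.94, on the double-negative array of tumour 2, and over the alternatives the difference ran from -0.10 to 2.98. Between GFP-only and double-negative cells it differed by 2.28 ± 0.91 (limma adjusted p = 0.937). That difference was 3.83 when tumour 1's double-negative array was dropped, which leaves only the unlike array of tumour 2 in that population. It was 0.745 with the tumour 2 array dropped instead.

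**Figure D4:**
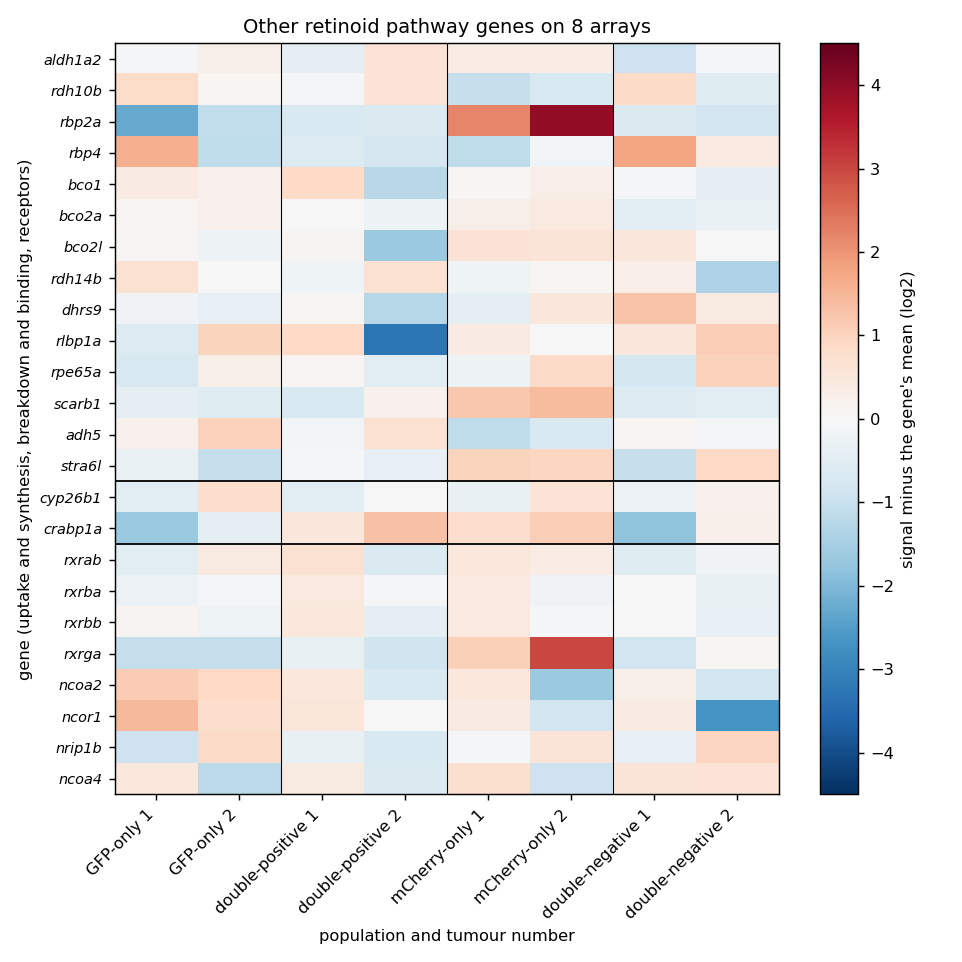
Signal of 24 other retinoid pathway genes on the 8 arrays, each minus the gene's mean over the arrays (colour, log2), with populations and tumour numbers along the horizontal axis and black lines between the 3 gene lists. The darkest red cells are rbp2a (8.58) and rxrga (8.82) in mCherry-only cells of tumour 2, and aldh1a2 and cyp26b1 are pale throughout.

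Genes known to respond to retinoic acid in embryos, mostly hox, meis and cdx genes, gave no calls. Of 46 listed 39 were measured, and limma called 0 in any comparison (0 to 5 at an unadjusted p under 0.05). Their median difference was 0.04 between GFP-only and mCherry-only, 0.20 between GFP-only and double-negative and 0.08 between double-positive and double-negative cells, against -0.08, 0.02 and 0.04 over all probe sets. The 5 lay between GFP-only and double-negative cells, with 4 higher and 1 lower in GFP-only cells, and 5 also between GFP-only and mCherry-only cells, with 2 higher and 3 lower. Over all 15502 probe sets 761 and 1744 had an unadjusted p under 0.05 in these 2 comparisons. The homeobox gene meis2a was at 7.38 and 7.25 in GFP-only, 6.53 and 7.12 in double-positive, 5.31 and 5.67 in mCherry-only and 6.49 and 3.56 in double-negative cells. Its GFP-only minus double-negative difference was 2.29 ± 0.84 (limma adjusted p = 0.819). Its double-positive minus double-negative difference was 1.80 ± 0.84 (adjusted p = 0.982). Without the double-negative array of tumour 1 these were 3.76 and 3.27, with only the unlike array of tumour 2 left in that population. Without the tumour 2 array instead they were 0.825 and 0.335. The homeobox gene hoxc6a, picked after its values were seen, had 2.2 ± 0.75 between double-positive and mCherry-only cells (adjusted p = 0.497). The caudal-type gene cdx4 had a difference of -2.74 ± 0.75 between GFP-only and mCherry-only cells, and its GFP-only arrays (1.77 and 0.07) were the 2 lowest. All its arrays were dim except mCherry-only of tumour 1 (3.9) and double-negative of tumour 2 (4.14), so little is read from that order.

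Fgf signalling, which opposes retinoic acid along the embryonic axis, was read from 17 of 20 listed genes. Limma called 0 in any comparison (0 to 4 at an unadjusted p under 0.05). The 4 lay between GFP-only and mCherry-only cells and were all higher in the former. In that comparison 1744 of 15502 probe sets, in either direction, had an unadjusted p under 0.05. The median difference was 0.66 between GFP-only and mCherry-only, 0.77 between GFP-only and double-negative and 0.34 between double-positive and double-negative cells, against -0.08, 0.02 and 0.04 over all probe sets. The receptor gene fgfr4 was at 8.40 and 7.23 in GFP-only, 6.39 and 6.62 in double-positive, 4.79 and 2.40 in mCherry-only and 8.02 and 2.84 in double-negative cells. The difference of GFP-only from double-negative cells was 2.38 with all arrays (limma adjusted p = 1.00). It was 4.98 with the double-negative array of tumour 1 left out, which leaves only the unlike array of tumour 2 in that population. With the tumour 2 array left out instead it was -0.205. The transcription factor gene etv5b had a double-positive minus double-negative difference of 1.66 ± 1.15 (SE; adjusted p = 0.999). In both genes the 2 lowest values were those of the 2 unlike arrays of tumour 2. The mean signal of the whole list in double-negative cells was 5.44 in tumour 1 and 4.24 on the unlike array of tumour 2. In mCherry-only cells it was 4.69 and 4.72.

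Markers of other cells moved with the populations. Of 23 listed myeloid genes 16 were measured, and the mean signal of the list was 3.56 to 3.60 in GFP-only, 4.80 to 5.27 in double-positive, 6.76 to 7.19 in double-negative and 8.26 to 8.52 in mCherry-only cells. GFP-only cells, the highest in cyp26a1, were thus the lowest in the mean of the myeloid genes, and mCherry-only cells, the lowest in cyp26a1 and the highest in rbp2a, rxrga and stra6, were the highest in it. Double-negative cells lay above double-positive cells in the myeloid mean, while their arrays overlapped in cyp26a1, rbp2a, rxrga and stra6. Single genes departed from that mean: 5 of the 16 had a mCherry-only mean below their double-negative mean, of which lyz, a lysozyme gene, was called with a difference of -7.96 ± 0.75 (SE; limma adjusted p = 0.0122), with 1.85 and 3.60 against 10.81 and 10.57. The macrophage receptor gene marco was higher, with 9.91 and 9.67 in mCherry-only and 6.10 and 4.38 in double-negative cells (4.55 ± 0.66, adjusted p = 0.0253). Both genes were picked after their values were seen. The 9 of 14 measured erythroid genes averaged 2.60 to 2.95 in GFP-only, 2.88 to 2.96 in double-positive, 3.89 to 4.99 in mCherry-only and 6.5 to 7.57 in double-negative cells. The 12 of 15 exocrine pancreas genes averaged 3.12 to 3.99 in the 3 reporter-positive populations and 6.20 to 6.61 in double-negative cells.

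Muscle genes (19 of 20 measured) averaged 5.85 to 6.65 in GFP-only, 8.18 to 8.49 in double-positive, 7.05 to 8.21 in mCherry-only and 3.78 to 5.22 in double-negative cells. Single muscle genes departed from that mean. Between GFP-only and mCherry-only cells 5 had a positive and 14 a negative difference, running from 2.98 in cdh15 to -4.985 in pvalb4. The 6 of 14 endothelial genes averaged 3.32 to 3.77 in GFP-only, 3.43 to 3.67 in double-positive, 3.90 to 4.08 in mCherry-only and 3.38 to 4.05 in double-negative cells. The 7 of 12 fibroblast and matrix genes averaged 5.33 to 5.79 in GFP-only, 4.89 to 5.68 in double-positive, 4.16 to 4.45 in mCherry-only and 4.32 to 5.41 in double-negative cells. No marker was at exactly 0 on any array. The part of other cells in the differences of the retinoic acid genes was not tested, and in such bulk samples fewer cells of a type and less RNA per cell cannot be told apart.

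**Figure D5:**
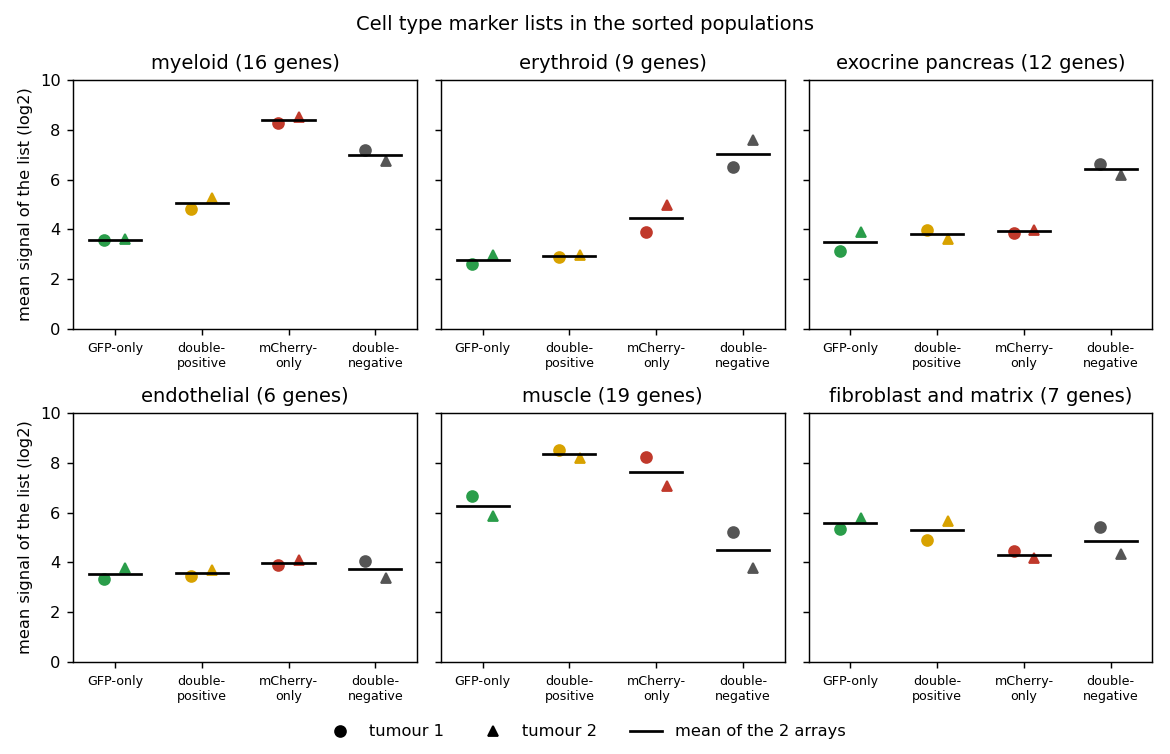
Mean signal of 6 cell type marker lists (vertical axes, log2) in the 4 populations (horizontal axes), with a circle for tumour 1, a triangle for tumour 2 and a bar for their mean. Myeloid genes run from 3.56 in GFP-only to 8.52 in mCherry-only cells, and erythroid and pancreas genes are highest in double-negative cells.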

How the data were processed

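RNA of 8 sorted samples was amplified with the Ovation Pico WTA System and hybridised to Affymetrix zebrafish arrays, per the labels' protocols and the probe set names. The deposited table holds log-scale signals of 15502 probe sets, read as log2. Its summary method, scaling and log base are not stated by any source used here. Of the probe sets, 10795 had 1 gene symbol in the array's annotation, 135 several and 4572 none. Where a gene had several, the one with the highest mean stands for it.

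Values were used as deposited. A model of 4 population means over all 8 arrays was fitted in limma 3.58.1 under R 4.3.3 (lmFit, eBayes; 4 residual degrees of freedom, prior 6.07), two-sided, with Benjamini-Hochberg adjustment over all probe sets of a comparison at a threshold of 0.05. Arrays of 1 number come from 1 tumour, so the numbers pair the populations. Deviations of same-numbered arrays correlated between -0.03 and 0.49 over the 6 pairs of populations. A fit that blocks on the tumour is given for cyp26a1 and dhrs3a in the tested comparisons of GFP-only cells. It is also given for rarga between GFP-only and double-negative cells, and elsewhere where it changes a call.

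The 9 genes, the 5 pathway and 6 marker lists were chosen with earlier results of these data known. Of the pathway lists, the text names every called gene and the gene with the largest difference per list in 2 comparisons (GFP-only minus mCherry-only, double-positive minus double-negative). For likeness to cyp26a1 it names the 5 genes of highest r. Others are said to have been picked after values were seen. The p-values measure the spread between arrays of 2 tumours, each sorted into all populations.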

Additional observations from a re-analysis of the deposited data

How the results depend on the processing

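Each comparison was recomputed under quantile normalization, median centring, without the dimmest 30% of probe sets, with only the arrays compared, with the tumour as a replicate block, with the other rarga probe set, without each array in turn and without the pair of tumour 2 arrays (mCherry-only, double-negative) that were unlike the rest. Of 723 recomputed differences of the 9 genes in the tested comparisons, 661 kept their sign without a call, 58 changed sign without a call and 4 were called. Some alternatives are the same fit for a given comparison, so these counts hold repeats. For example, leaving out either array of a population changes nothing between the fits for a comparison without that population. Between GFP-only and double-positive cells dhrs3a was called with only the arrays compared. It was called again without the tumour 2 pair, which is the same fit for that comparison. The other calls lay between GFP-only and double-negative cells without the double-negative array of tumour 1, which leaves only the unlike array of tumour 2 in that population. No other fit without 1 array called any of the 9 genes in a tested comparison. With the tumour as a block 0 of the 9 genes were called in each tested comparison, as without it, while the calls over all probe sets rose from 133 to 248 in GFP-only against mCherry-only, 80 to 121 in GFP-only against double-negative, 1 to 18 in GFP-only against double-positive, 51 to 133 in double-positive against mCherry-only, 84 to 165 in double-positive against double-negative and 43 to 118 in mCherry-only against double-negative cells. Leaving out 1 array put between 2 and 4 genes highest in GFP-only cells (3 with all arrays), and 5 to 8 genes apart between GFP-only and mCherry-only cells (5 with all, 8 without the tumour 2 pair), where fewer arrays by construction overlap less. The GFP-only minus mCherry-only difference ranged from 5.58 to 5.68 for cyp26a1 and from 4.25 to 4.92 for dhrs3a. The filter on dim probe sets kept 4 of the 9 genes, cyp26a1, raraa, rarab and rarga. Over all alternatives, the probe sets called ranged from 43 to 248 in GFP-only against mCherry-only and from 0 to 180 in double-positive against double-negative cells. Signal over background was not measured, which limits what the dim values can show.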

Other observations

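The genes most like dhrs3a over the 8 arrays, chosen after values were seen, were notch3 (r = 0.96), cyp26a1 (0.96), bmp3 (0.92), bmb (0.92) and LOC561325 (0.91). Signal of notch3, a Notch receptor gene, was 6.74 and 6.30 in GFP-only, 4.43 and 4.55 in double-positive, 4.29 and 4.20 in mCherry-only and 5.78 and 4.53 in double-negative cells. Both GFP-only arrays lay above all others, which a gene picked for its likeness to dhrs3a would tend to show. Among the other pairs of the 9 genes, stra6 and crabp2a correlated at r = 0.87 and stra6 and raraa at r = 0.79, which is a description over 8 arrays that share 2 tumours.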
